A study of Oryza sativa with 8 samples.

Results

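Cytochrome P450 monooxygenases were followed in rice leaves as 23 genes, out of 17905 genes that had a probe set of their own on the array. A gene was a member when the platform annotation tied a probe set to that gene alone and a name of the gene had the P450 form, CYP with a family number, a subfamily letter and a member number. The abscisic acid 8'-hydroxylases of CYP707A and the allene oxide synthases of CYP74A, 6 genes, were left out by the same rule, and so were cyclophilins. The 23 genes had 28 probe sets, and each gene was represented by the probe set with the highest mean over all arrays. The RefSeq table gave 32 such names, and 9 of them had no probe set assigned: CYP90A3, CYP90B2, CYP90D2, CYP734A2, CYP734A5, CYP714B1, CYP714B2, CYP701A19 and CYP78A11. The rule therefore covered the named P450 genes and not the whole superfamily.

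P450 enzymes are haem proteins that use oxygen and electrons from a reductase to hydroxylate, epoxidise or cleave small molecules. In plants they form one of the largest enzyme families, in which each family number groups proteins of related sequence. Several rice members make or destroy growth hormones, the gibberellins and brassinosteroids, and others decorate the diterpene skeletons of the defence compounds momilactone, phytocassane and oryzalexin.

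RNA came from leaves of 21-day-old seedlings of japonica rice Zhonghua11, either wild type (WT) or a line overexpressing the GRAS family regulator OsGRAS23 in that cultivar (OsGRAS23-OE). Plants grew in liquid culture and were sampled either untreated (normal) or after a stay on filter paper that lasted until WT leaves began to roll (drought). Each of the 4 groups had 2 Affymetrix rice arrays, labelled as biological replicates of 20 seedlings, so 8 arrays were analysed. The promoter of the transgene and the number of independent transformants are not given in the sources used here, and OsGRAS23 was not matched to a probe set by name, so its level could not be checked.

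Values were log2 expression per probe set, on which a difference of 1 is a 2-fold change. Replicate arrays correlated at 0.9866 to 0.9909 across probe sets, and array medians lay between 4.801 and 4.902. A gene was called changed in a comparison when limma, fitted to all 8 arrays and 57194 probe sets, gave both an adjusted p (Benjamini-Hochberg) under 0.05 and a 2-fold or larger change. Intervals below are 95% intervals of that fit. An exact permutation test of 2 arrays against 2 cannot give a two-sided p under 0.333, so every call rests on the spread that limma shared across groups and probe sets. The 8 leaf markers matched out of 20 had mean levels of 9.09 to 9.97 on the arrays, with the chlorophyll-binding protein gene CAB2R and the Rubisco small subunit gene RBCS bright in every group, whereas RBCS1 stayed dim. A list of root genes was matched for 11 of 16 names. Of these, TIP1;1 (13.58 to 14.06) and LSI1 (9.20 to 11.89) were also bright on every array. Both lists are given by array beside the brassinosteroid genes.

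Many of the P450 genes gave low signals. On the mean of the 8 arrays, 13 of the 23 genes (56.5%) exceeded a log2 value of 5, against 14441 of 17905 genes (80.7%), and the median was 5.17 against 7.32. Replicate standard deviations of the members had a median of 0.17 in WT normal leaves, 0.25 in WT drought leaves, 0.20 in OsGRAS23-OE normal leaves and 0.11 in OsGRAS23-OE drought leaves. The widest was that of CYP701A8 in WT normal leaves, 0.76.

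**Figure D1:**
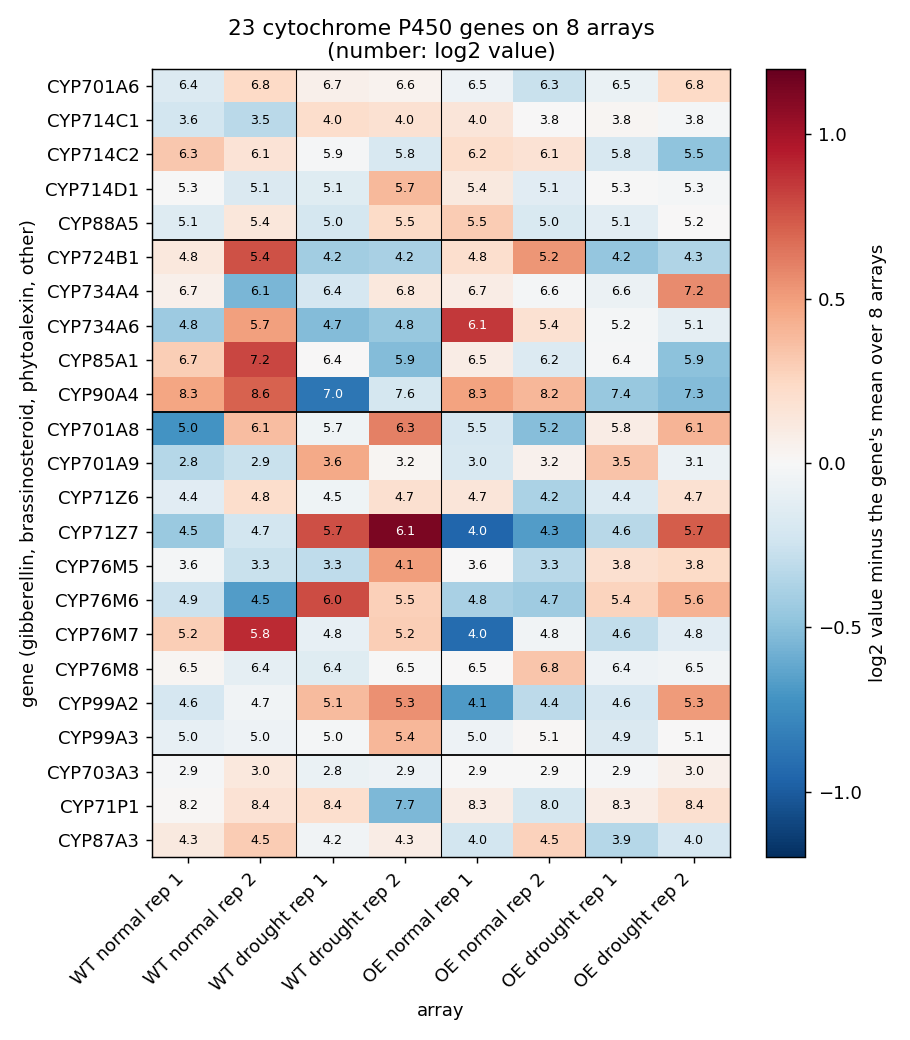
Log2 values of the 23 P450 genes (rows, grouped as gibberellin, brassinosteroid, diterpenoid phytoalexin and other) on the 8 arrays (columns). Numbers in cells are log2 values, and the colour is the distance from the gene's own mean over the 8 arrays. CYP90A4 and CYP724B1 are below their means on all 4 drought arrays, and CYP76M6 is above its mean on all 4.

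In WT leaves, drought lowered the brassinosteroid synthesis gene CYP90A4 2.19-fold and raised CYP71Z7, a diterpene hydroxylase gene of phytoalexin synthesis, 2.43-fold. The other 21 P450 genes were not called. In all, 1 of 23 members was called higher, where 3.85% of all genes were, and 1 of 23 was called lower, where 11.4% of all genes were, so the share higher was near its background and the share lower was below it, in a set too small to set them apart. The median log2 difference over the members was 0.02, and it was -0.30 over all genes and 0.08 over all probe sets. Median centring of the arrays moved the member median to -0.06 and quantile normalization moved it to 0.11, while the median of all genes became -0.38 and -0.19, so signs of members close to 0 depend on the scaling. At an unadjusted p under 0.05, limma counted 8 of 23 members, against 50.1% of all genes. The 2 WT drought arrays lay outside the range of the 2 WT normal arrays for 13 of 23 members, against 73.1% of all genes.

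In OsGRAS23-OE leaves, no P450 gene was called in either direction, where 3.37% of all genes were called higher and 1.85% lower. limma counted 6 of 23 members at an unadjusted p under 0.05, against 32.8% of all genes. The lowest adjusted p belonged to CYP90A4, at 0.0545 in limma. The median log2 difference over the members was 0.03, and over all genes it was -0.14. The OsGRAS23-OE arrays of the conditions did not overlap for 11 of 23 members, against 63.3% of all genes.

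**Figure D2:**
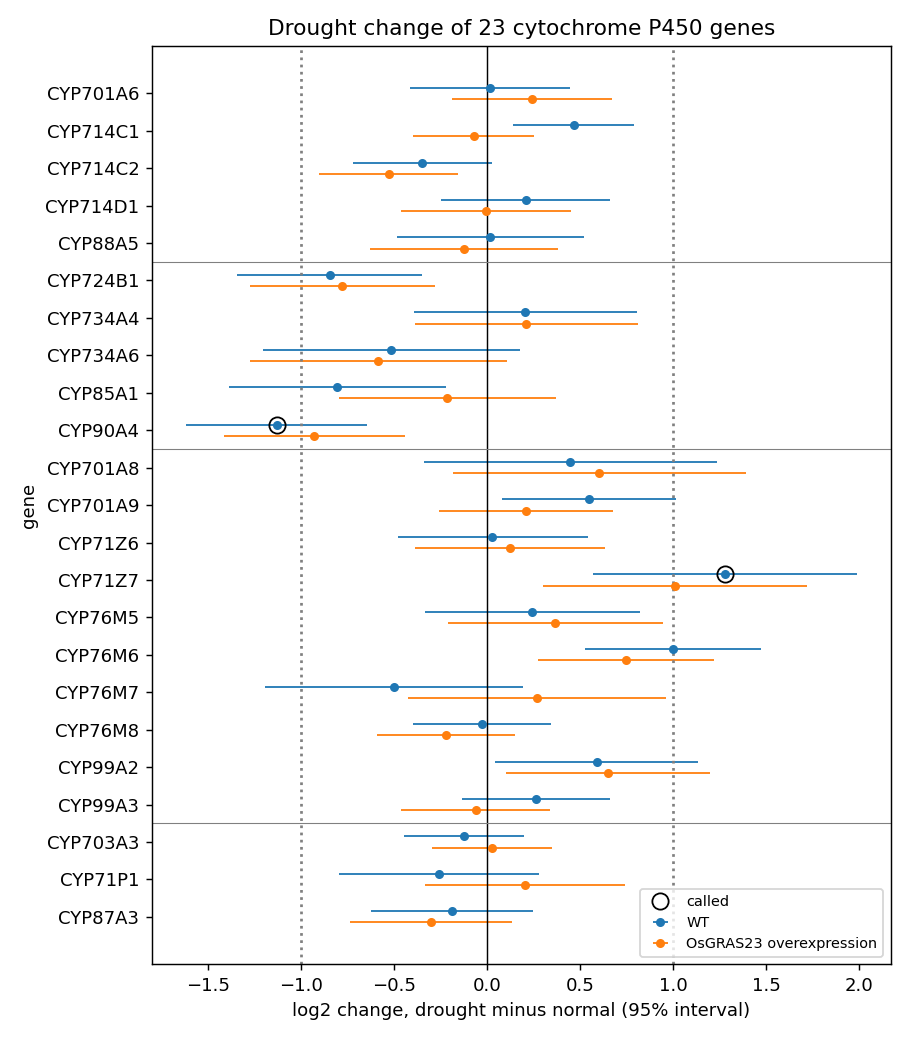
Log2 difference between drought and normal leaves for each of the 23 P450 genes, in WT (blue) and in OsGRAS23-OE (orange), with bars for the 95% interval, dotted lines at 2-fold and a black ring around a called value. The 2 rings are on CYP90A4 and CYP71Z7 in WT, and the OsGRAS23-OE points of both genes lie on the same side of 0 as the WT points.

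Of the 5 brassinosteroid genes, CYP90A4, CYP724B1 and CYP85A1 act in synthesis, whereas CYP734A4 and CYP734A6 belong to a subfamily that inactivates the hormone. CYP90A4 (LOC4351461), also named OsCPD2, read 8.33 and 8.56 in WT normal leaves, 6.99 and 7.64 in WT drought leaves, 8.33 and 8.25 in OsGRAS23-OE normal leaves and 7.40 and 7.33 in OsGRAS23-OE drought leaves. All 4 drought arrays were below all 4 normal arrays. The log2 difference in WT was -1.13 (SE 0.215, 95% interval -1.62 to -0.64, limma adjusted p = 0.0104), and in OsGRAS23-OE it was -0.93 (SE 0.215, 95% interval -1.42 to -0.44, limma adjusted p = 0.0545). The drought changes of the lines differed by 0.20 (95% interval -0.49 to 0.90), which did not pass the test. In this bulk tissue, fewer cells of a type and less RNA per cell cannot be told apart. The WT call was lost when WT drought replicate 1 was left out (-0.81) and when WT normal replicate 2 was (-1.02, limma adjusted p = 0.0791), and quantile normalization brought it under 2-fold (-0.88).

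CYP724B1 (LOC4336116), the DWARF11 gene of rice, read 4.75 and 5.39 in WT normal leaves, 4.21 and 4.24 in WT drought leaves, 4.83 and 5.15 in OsGRAS23-OE normal leaves and 4.16 and 4.26 in OsGRAS23-OE drought leaves. Again all 4 drought arrays were below all 4 normal arrays. The WT log2 difference was -0.84 (SE 0.219, limma adjusted p = 0.0311), short of 2-fold, and that in OsGRAS23-OE was -0.78 (SE 0.219, limma adjusted p = 0.100). Its probe set is of the class that can match several transcripts. Without WT normal replicate 1 the WT difference was -1.16 and was called (limma adjusted p = 0.00813).

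CYP85A1 (LOC4333399), the C-6 oxidase of a late step in the pathway, read 6.71 and 7.22 in WT normal leaves, 6.42 and 5.90 in WT drought leaves, 6.502 and 6.246 in OsGRAS23-OE normal leaves and 6.40 and 5.92 in OsGRAS23-OE drought leaves. WT normal leaves held the 2 highest values, and the OsGRAS23-OE arrays of the conditions overlapped. The drought difference was -0.80 in WT (SE 0.257, limma adjusted p = 0.0596) and -0.21 in OsGRAS23-OE (SE 0.257, limma adjusted p = 0.761). The difference between these changes was 0.59, with a 95% interval of -0.23 to 1.42 that includes 0. Without WT normal replicate 1 the WT difference was -1.06 and was called (limma adjusted p = 0.0351).

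The inactivation genes did not pass the test in any comparison. CYP734A6 read 4.82 and 5.74 in WT normal leaves, 4.730 and 4.798 in WT drought leaves, 6.10 and 5.44 in OsGRAS23-OE normal leaves and 5.23 and 5.14 in OsGRAS23-OE drought leaves. The WT normal arrays of this gene lay far apart, and all values of the drought groups were below those of the OsGRAS23-OE normal group. CYP734A4 read 6.70 and 6.09 in WT normal leaves, 6.43 and 6.77 in WT drought leaves, 6.73 and 6.62 in OsGRAS23-OE normal leaves and 6.56 and 7.20 in OsGRAS23-OE drought leaves. The log2 differences under drought were -0.51 and -0.58 for CYP734A6 and 0.21 and 0.21 for CYP734A4, in WT and OsGRAS23-OE respectively. Over the 5 brassinosteroid genes, synthesis and inactivation together, the median difference was -0.80 in WT and -0.58 in OsGRAS23-OE. Over all genes it was -0.30 and -0.14. The WT median of the brassinosteroid genes was the value of CYP85A1, and the OsGRAS23-OE median was that of CYP734A6.

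Receptor and response genes of the same hormone were among 68 named partner genes of P450 pathways, of which 29 were matched. BRI1, the brassinosteroid receptor, read 9.87 and 9.83 in WT normal leaves, 8.36 and 8.72 in WT drought leaves, 10.03 and 9.55 in OsGRAS23-OE normal leaves and 8.71 and 8.39 in OsGRAS23-OE drought leaves. It fell in both lines, by 1.31 in WT (SE 0.211, limma adjusted p = 0.00585) and by 1.24 in OsGRAS23-OE (limma adjusted p = 0.0181). The OsGRAS23-OE call of BRI1 was lost without OsGRAS23-OE drought replicate 2 (-1.08, limma adjusted p = 0.117) or OsGRAS23-OE normal replicate 1 (-0.997, limma adjusted p = 0.144). BZR1, a transcription factor that acts downstream of the receptor, read 7.67 and 7.33 in WT normal leaves, 6.31 and 6.35 in WT drought leaves, 7.27 and 6.72 in OsGRAS23-OE normal leaves and 6.78 and 6.39 in OsGRAS23-OE drought leaves. It fell by 1.17 in WT (SE 0.227, limma adjusted p = 0.0111), and its OsGRAS23-OE arrays overlapped between conditions. BZR1 was no longer called when either WT drought array was left out (-1.15 without replicate 1, -1.19 without replicate 2), and it came just under 2-fold when WT normal replicate 1 was left out and to -0.93 after quantile normalization.

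**Figure D3:**
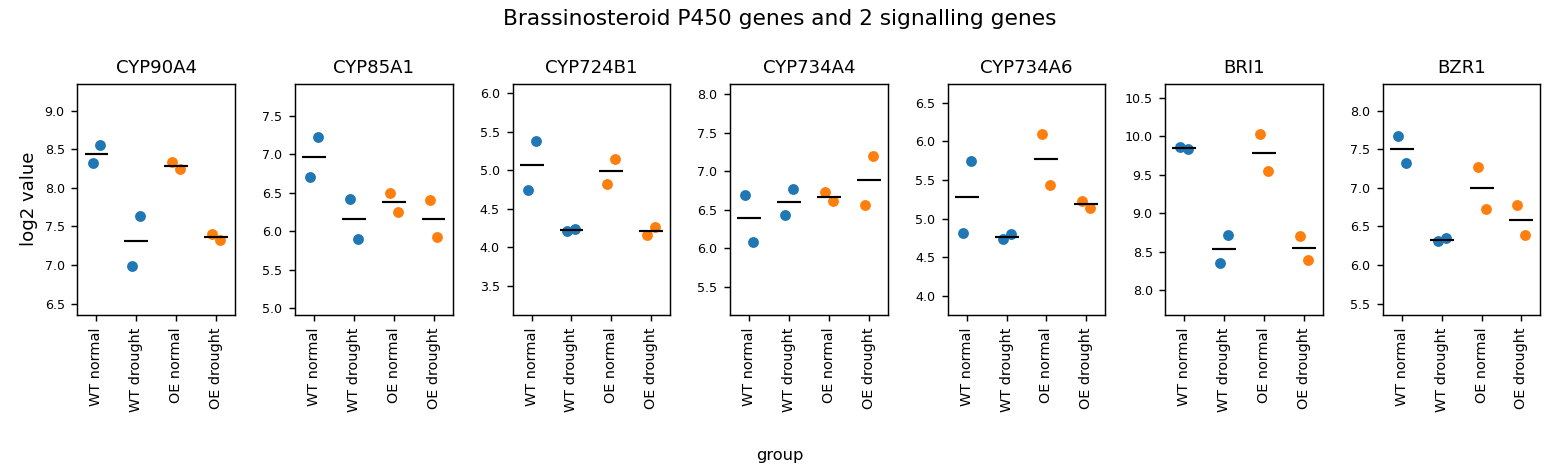
Log2 values of the 5 brassinosteroid P450 genes, BRI1 and BZR1 on each array (points) with the group mean (line), in WT (blue) and OsGRAS23-OE (orange; OE on the axis). Each panel spans the same log2 width but has its own centre, so levels are read within a gene. CYP90A4, CYP724B1 and BRI1 have all 4 drought arrays below all 4 normal arrays.

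Root and leaf markers were read beside the brassinosteroid genes. The mean log2 level of the 11 matched root genes was 6.78 and 7.96 on the WT normal arrays, 6.41 and 5.58 on the WT drought arrays, 6.41 and 7.24 on the OsGRAS23-OE normal arrays and 6.54 and 6.14 on the OsGRAS23-OE drought arrays. OsGRAS23-OE normal replicate 1 was thus no higher than WT drought replicate 1, while CYP90A4 and CYP724B1 were higher on the former. WT normal replicate 2, highest in root mean, held the highest values of CYP90A4, CYP724B1 and CYP85A1 and the lowest of CYP734A4. The highest CYP734A6 value was on OsGRAS23-OE normal replicate 1. Of the 11 root genes, WT normal replicate 2 held the highest value for 6 and OsGRAS23-OE normal replicate 2 for 3. In WT, 3 of the 11 were called lower under drought, against 11.4% of all genes. They were the iron transporter gene IRT1 (-2.27), the silicon transporter gene LSI2 (-2.90) and SCR1 (-1.32). None was called in OsGRAS23-OE, where 1.85% of all genes were called lower. With both normal arrays numbered 2 left out, CYP90A4 differed by -1.02 in WT and CYP71Z7 by 1.40, against -1.13 and 1.28 on all arrays. Both differences stayed above 2-fold. Their WT calls were lost in that fit, which has 1 normal array in each line. The mean level of the 8 leaf genes was 9.95 and 9.97 on the WT normal arrays, 9.39 and 9.37 on the WT drought arrays, 9.67 and 9.79 on the OsGRAS23-OE normal arrays and 9.45 and 9.09 on the OsGRAS23-OE drought arrays. All 4 drought arrays were thus below all 4 normal arrays. The median difference of the leaf genes was -0.56 in WT and -0.35 in OsGRAS23-OE, and the chlorophyll synthesis genes CHLH (-1.06 in WT, -1.15 in OsGRAS23-OE) and CHLI (-1.04 in WT) were called lower, with no call of CHLI in OsGRAS23-OE. The part of root or leaf RNA in the P450 differences was not tested.

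The phytoalexin genes formed the largest set, with 10 members. Of these, 1 was called higher in WT and none in OsGRAS23-OE, against 3.85% and 3.37% of all genes. The median difference of the set was 0.36 in WT and 0.32 in OsGRAS23-OE, and single values ran from -0.50 to 1.28 in WT. CYP71Z7 (LOC4329726) read 4.50 and 4.73 in WT normal leaves, 5.71 and 6.07 in WT drought leaves, 3.99 and 4.27 in OsGRAS23-OE normal leaves and 4.61 and 5.67 in OsGRAS23-OE drought leaves. The OsGRAS23-OE drought arrays were more than 1 log2 unit apart, and one of them was level with the WT normal leaves. The difference was 1.28 in WT (SE 0.313, 95% interval 0.57 to 1.99, limma adjusted p = 0.0254) and 1.01 in OsGRAS23-OE (SE 0.313, 95% interval 0.30 to 1.72, limma adjusted p = 0.130). The WT call was lost when any 1 of the 4 WT arrays was left out, with differences of 1.10 to 1.46 and limma adjusted p of 0.0682 to 0.136. Without OsGRAS23-OE drought replicate 1 the difference in that line was 1.54 and was called (limma adjusted p = 0.0231).

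CYP76M6 (LOC4329730), which hydroxylates diterpenes on the oryzalexin branch, read 4.91 and 4.50 in WT normal leaves, 5.96 and 5.46 in WT drought leaves, 4.79 and 4.74 in OsGRAS23-OE normal leaves and 5.44 and 5.59 in OsGRAS23-OE drought leaves. All 4 drought arrays were above all 4 normal arrays. Its WT difference of 0.999 (SE 0.209, limma adjusted p = 0.0146) was just under 2-fold and therefore not called, and its OsGRAS23-OE difference was 0.75 (SE 0.209, limma adjusted p = 0.0979). It was called when WT normal replicate 1 was left out (1.21) and when WT drought replicate 2 was (1.25). A second, dimmer probe set of CYP76M6 differed by 0.28 in WT and by -0.04 in OsGRAS23-OE, and the probe sets therefore disagreed.

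CYP76M7 read 5.18 and 5.78 in WT normal leaves, 4.78 and 5.18 in WT drought leaves, 3.96 and 4.84 in OsGRAS23-OE normal leaves and 4.59 and 4.75 in OsGRAS23-OE drought leaves. Arrays of normal and drought leaves overlapped in both lines, and the differences under drought were -0.50 in WT and 0.27 in OsGRAS23-OE. The RefSeq record behind this name carries locus names of more than 1 gene copy, so which copy the probe set measures is not settled. CYP76M5 (3.28 to 4.10 over all arrays) and CYP76M8 (6.36 to 6.83) differed by 0.24 and -0.03 in WT and by 0.37 and -0.22 in OsGRAS23-OE. CYP71Z6, which adjoins CYP71Z7 on chromosome 2, ran from 4.18 to 4.76 and differed by 0.03 and 0.13.

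The CYP99A genes act in momilactone synthesis. CYP99A2 read 4.55 and 4.71 in WT normal leaves, 5.13 and 5.31 in WT drought leaves, 4.08 and 4.44 in OsGRAS23-OE normal leaves and 4.55 and 5.26 in OsGRAS23-OE drought leaves. Drought arrays exceeded normal arrays within each line, by 0.59 in WT (SE 0.241, limma adjusted p = 0.116) and by 0.65 in OsGRAS23-OE (SE 0.241, limma adjusted p = 0.206). CYP99A3 read 4.95 and 4.99 in WT normal leaves, 5.03 and 5.45 in WT drought leaves, 4.995 and 5.073 in OsGRAS23-OE normal leaves and 4.88 and 5.06 in OsGRAS23-OE drought leaves. Its differences were 0.26 in WT and -0.06 in OsGRAS23-OE, and neither passed the test.

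Several of these genes lie side by side. In RefSeq gene order, 10 neighbouring genes on chromosome 2 include CYP76M5, CYP76M8, CYP71Z6, CYP71Z7 and CYP76M6 with the diterpene synthase genes KSL7, CPS2, KSL5 and KSL6. Of the 9 with a probe set, 1 was called higher in WT (CYP71Z7), where 3.85% of all genes were. None was called in OsGRAS23-OE, where 3.37% of all genes were called higher. The differences were above 0 for 7 and 8 of the 9. The share of all genes above 0 was not counted. In WT the median difference was 0.08 over all probe sets, -0.17 over those with a mean above 5 and -0.30 over all genes. In OsGRAS23-OE these medians were 0.02, -0.075 and -0.14. The backgrounds differ in sign, so the signs of the neighbours have no settled background, and a joint rise was not tested. On chromosome 4, 6 neighbours include CPS4, CYP99A3, the momilactone synthase gene OsMAS, KSL4 and CYP99A2. Of the 5 with a probe set, 2 were called higher in WT (CPS4 and KSL4) and 1 in OsGRAS23-OE (CPS4), beside the same 3.85% and 3.37% of all genes. The P450 genes of that group were not among the called genes.

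CPS4, which makes the syn-copalyl diphosphate that the CYP99A pathway starts from, read 3.87 and 3.61 in WT normal leaves, 5.55 and 5.89 in WT drought leaves, 3.82 and 3.77 in OsGRAS23-OE normal leaves and 4.79 and 5.11 in OsGRAS23-OE drought leaves. It rose by 1.98 in WT (SE 0.187, limma adjusted p = 0.000969) and by 1.15 in OsGRAS23-OE (SE 0.187, limma adjusted p = 0.0149). KSL4, the synthase of the next step, read 3.57 and 3.29 in WT normal leaves, 4.37 and 4.56 in WT drought leaves, 3.12 and 3.43 in OsGRAS23-OE normal leaves and 3.51 and 4.59 in OsGRAS23-OE drought leaves. Its rise of 1.04 in WT was close to the threshold (SE 0.311, limma adjusted p = 0.0492). The KSL4 call was lost without any 1 of 6 arrays (all 4 WT arrays and both OsGRAS23-OE normal arrays; 0.89 to 1.18, limma adjusted p of 0.0629 to 0.250), after median centring (0.95) and after quantile normalization (0.91). The OsGRAS23-OE call of CPS4 was lost without OsGRAS23-OE drought replicate 2, OsGRAS23-OE normal replicate 1 or OsGRAS23-OE normal replicate 2 (0.99, 1.18 and 1.13, limma adjusted p of 0.0768 to 0.102).

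**Figure D4:**
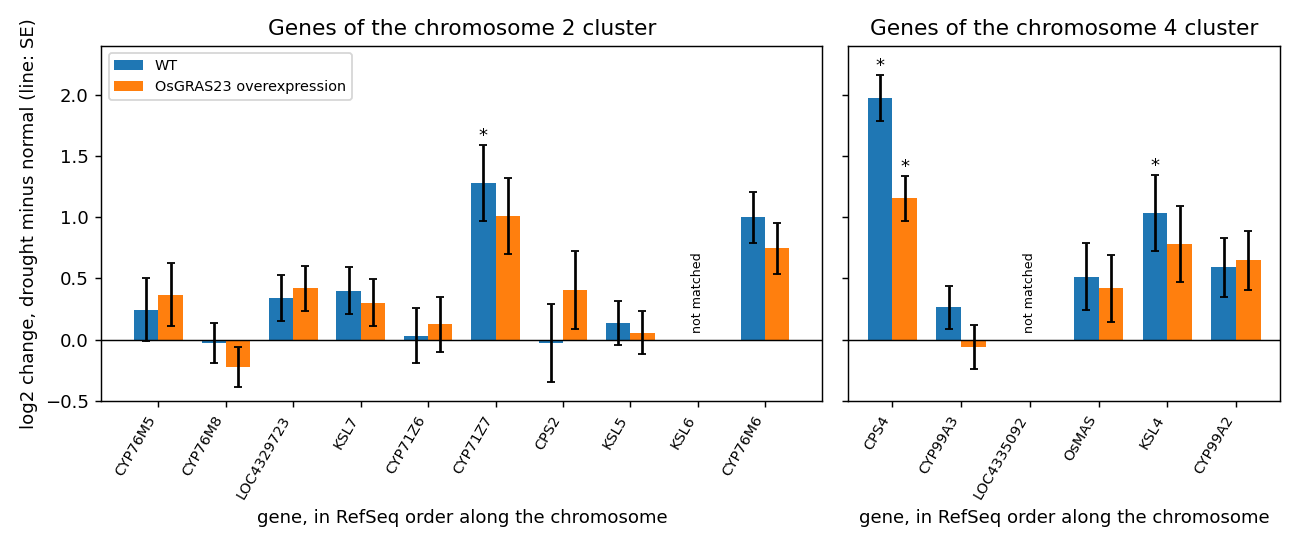
Log2 difference between drought and normal leaves, with its SE, for neighbouring genes on chromosome 2 (left) and chromosome 4 (right) in RefSeq order, in WT (blue) and OsGRAS23-OE (orange). An asterisk marks a called value. CYP71Z7 and CYP76M6 are the highest P450 bars on the left, and CPS4 is the highest bar on the right.

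The CYP701A genes sit together on chromosome 6. CYP701A8, which hydroxylates diterpenes of the phytoalexin pathways, read 4.996 and 6.077 in WT normal leaves, 5.66 and 6.31 in WT drought leaves, 5.51 and 5.20 in OsGRAS23-OE normal leaves and 5.80 and 6.12 in OsGRAS23-OE drought leaves. The WT arrays of the conditions overlapped and those of OsGRAS23-OE did not, with differences of 0.45 and 0.61. CYP701A9, a tandem copy, was counted here with the phytoalexin genes, whereas CYP701A6 of the same family was counted with the gibberellin genes. CYP701A9 was dim and read 2.84 and 2.91 in WT normal leaves, 3.64 and 3.21 in WT drought leaves, 2.99 and 3.24 in OsGRAS23-OE normal leaves and 3.52 and 3.12 in OsGRAS23-OE drought leaves. It differed by 0.55 in WT (limma adjusted p = 0.0930) and by 0.21 in OsGRAS23-OE.

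Of the 5 gibberellin genes, none was called by its brightest probe set, and a second probe set of CYP714C2 was called lower in WT. CYP701A6 encodes the ent-kaurene oxidase and CYP88A5 the ent-kaurenoic acid oxidase, which carry out successive early oxidations of the pathway. CYP701A6 ran from 6.33 to 6.84 over the 8 arrays and CYP88A5 from 5.01 to 5.53. Their differences under drought were 0.02 and 0.02 in WT, with 95% intervals of -0.41 to 0.45 and -0.49 to 0.52, and they were 0.24 and -0.12 in OsGRAS23-OE. The annotation record of CYP701A6 also bears names of the neighbouring CYP701A19, and its probe sets are of the class that can match several transcripts. CYP714D1, known as EUI, deactivates gibberellins by epoxidation, ran from 5.11 to 5.67 and differed by 0.21 in WT and by less than 0.01 in OsGRAS23-OE.

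CYP714C1 and CYP714C2 are adjacent on chromosome 12 and belong to a family that modifies gibberellins. CYP714C1 read 3.59 and 3.49 in WT normal leaves, 4.018 and 3.998 in WT drought leaves, 3.95 and 3.81 in OsGRAS23-OE normal leaves and 3.83 and 3.79 in OsGRAS23-OE drought leaves. WT normal leaves were lowest and the other 3 groups were close together. The drought difference was 0.47 in WT (SE 0.143, limma adjusted p = 0.0533) and -0.07 in OsGRAS23-OE, and a second probe set gave 0.49 and 0.09. Among the members, CYP714C1 had the lowest unadjusted p for the difference between lines in the drought change (-0.54, 95% interval -0.998 to -0.078, unadjusted p = 0.0268 and adjusted p = 0.729 in limma).

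CYP714C2 read 6.27 and 6.11 in WT normal leaves, 5.93 and 5.75 in WT drought leaves, 6.15 and 6.12 in OsGRAS23-OE normal leaves and 5.75 and 5.46 in OsGRAS23-OE drought leaves. All 4 drought arrays were below all 4 normal arrays, by 0.35 in WT and 0.53 in OsGRAS23-OE. This brighter probe set can match several transcripts. The other probe set of the gene read 4.99 and 5.35 in WT normal leaves and 3.92 and 3.69 in WT drought leaves, a fall of 1.37 that was called (SE 0.377, limma adjusted p = 0.0379). In OsGRAS23-OE that probe set read 4.91 and 3.82 in normal leaves and 4.31 and 3.41 in drought leaves, which overlap.

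Of the 3 remaining genes, none was called in any comparison. CYP71P1 encodes tryptamine 5-hydroxylase, the last enzyme of serotonin synthesis and the gene of the Sekiguchi lesion mutant, and it ran from 7.70 to 8.44, with the lowest value in WT drought replicate 2. Its differences were -0.26 in WT and 0.21 in OsGRAS23-OE, while its dimmer probe set gave 0.39 in WT. CYP703A3, a fatty acid hydroxylase of the pollen wall, was dim on every array (2.84 to 3.05). CYP87A3, an auxin-responsive gene of coleoptiles, ran from 3.85 to 4.50, with differences of -0.19 and -0.30.

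Grouped by P450 family, the medians followed the single genes above. In WT and OsGRAS23-OE respectively, the median drought difference was 0.45 and 0.24 over the 3 CYP701 genes, 0.03 and 0.21 over the 3 CYP71 genes and 0.21 and -0.07 over the 3 CYP714 genes. It was 0.11 and 0.32 over the 4 CYP76 genes, 0.43 and 0.29 over the 2 CYP99 genes and -0.15 and -0.19 over the 2 CYP734 genes. The other 6 families had a single member each. The WT differences were -0.80 for CYP85, -1.13 for CYP90, -0.84 for CYP724, -0.19 for CYP87, -0.12 for CYP703 and 0.02 for CYP88. In OsGRAS23-OE they were -0.21, -0.93, -0.78, -0.30, 0.03 and -0.12. The median over all genes was -0.30 in WT and -0.14 in OsGRAS23-OE. CYP85, CYP90 and CYP724 are of brassinosteroid synthesis, and CYP734A6 of inactivation also differed by -0.51 and -0.58. In CYP71, CYP76, CYP714 and CYP734 the members of one family had differences of both signs in WT.

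The partner genes were counted as a whole as well. In WT, 7 of 29 were called higher and 4 lower, against 3.85% and 11.4% of all genes. In OsGRAS23-OE 3 were called higher and 1 lower, against 3.37% and 1.85%. The list was chosen with earlier results of these data known, so these counts are no test of the pathways. The largest rise was that of CKX4, a cytokinin oxidase gene, by 2.80 in WT and 2.75 in OsGRAS23-OE. CKX5, JAR1, LOG and 4CL5 were also called higher in WT (by 1.02 to 1.15). Their OsGRAS23-OE differences were 0.96, 0.49, 0.29 and 0.68, none of them called. 4CL1 and 4CL2 of the phenylpropanoid pathway were called lower in WT (by 1.48 and 1.47), and differed by -0.76 and -0.80 in OsGRAS23-OE without a call. GA20OX3 of gibberellin synthesis was called higher in OsGRAS23-OE (by 1.39). Its WT difference was 0.99, just under 2-fold (limma adjusted p = 0.0148). Of the 11 WT calls, those of CPS4, BRI1 and CKX4 were kept under every alternative in which the gene was tested, and the other 8 were lost under at least 1. The median partner difference was -0.02 in WT and 0.12 in OsGRAS23-OE.

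Comparing the lines, no P450 gene was called between OsGRAS23-OE and WT in normal leaves, where 0.0223% of all genes were called, and none in drought leaves, where 0.0168% were. At an unadjusted p under 0.05, limma counted 3 of 23 members in normal leaves, against 6.89% of all genes, and 1 of 23 in drought leaves, against 8.18%. These comparisons use the same arrays as the drought comparisons. The largest value in normal leaves was that of CYP76M7, -1.08 (95% interval -1.77 to -0.39, unadjusted p = 0.00654 and adjusted p = 0.873 in limma), with both OsGRAS23-OE arrays below both WT arrays. CYP85A1 differed by -0.59 and CYP714C1 by 0.34 in normal leaves. In drought leaves CYP71Z7 differed by -0.75 (95% interval -1.46 to -0.04, unadjusted p = 0.0403 and adjusted p = 0.694 in limma). The arrays of the lines did not overlap for 7 of 23 members in normal leaves, against 35.3% of all genes, and for 6 of 23 in drought leaves, against 40.3%.

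The drought change did not differ between the lines for any P450 gene by the test, nor was any of all genes called (0.00%), and limma counted 1 member, CYP714C1, at an unadjusted p under 0.05, against 8.63% of all genes. The median SE of that difference over the members was 0.310, and the intervals stayed wide, for example -1.27 to 0.73 for CYP71Z7 and -0.21 to 1.75 for CYP76M7. A call in WT that is missing in OsGRAS23-OE is thus no measured difference between the lines.

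With the drought changes of both lines averaged in the same fit, a comparison chosen after the data were seen, CYP90A4 fell by 1.03 (SE 0.152, limma adjusted p = 0.00234) and CYP71Z7 rose by 1.15 (SE 0.221, limma adjusted p = 0.00729). The background was 4.21% of all genes called higher and 6.12% called lower. Below 2-fold but with an adjusted p under 0.05 in limma were CYP76M6 (0.87, adjusted p = 0.00415), CYP724B1 (-0.81, adjusted p = 0.00699), CYP99A2 (0.62, adjusted p = 0.0312) and CYP714C2 (-0.44, adjusted p = 0.0272). All 4 drought arrays lay outside all 4 normal arrays for 4 of 23 members (CYP76M6 above, CYP90A4, CYP724B1 and CYP714C2 below), against 43.2% of all genes. Leaving out WT drought replicate 1 or WT normal replicate 2 brought CYP90A4 to -0.87 and -0.97, and leaving out OsGRAS23-OE drought replicate 2 brought CYP71Z7 to 0.88, all under 2-fold.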

How the data were processed

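Labelling used 6 µg of RNA per array. Deposited by the authors were RMA expression values on a log2 scale, made with Partek 6.5 according to the submitters' processing notes, and its settings are not given in the sources used here. Ranked values of different arrays were up to 0.415 apart (median 0.169), which means that their distributions were not equal. They were tested as deposited.

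The deposited log2 values were tested with limma 3.58.1 in R 4.3.3 (lmFit, contrasts.fit, eBayes), which had 4 residual and 4.85 prior degrees of freedom. The 187 array controls were left out, and p-values were adjusted by Benjamini-Hochberg over the other 57194 probe sets. The platform table tied 22436 probe sets to 1 gene, 95 to several and 34663 to none, and all 17905 gene identifiers were found in the RefSeq table of assembly ASM3414082v1, which was used for names and gene order only. Python 3.11.15 with numpy 2.4.6, pandas 2.3.3 and matplotlib 3.10.9 made lists and plots. In a simulation of the WT drought comparison over 57194 probe sets, 62 of 100 changes of 1.5 on the log2 scale were recovered. Of 100 changes of 3, 97 were recovered, and 5 of 164 calls were false. No other probe sets were changed, and random noise was drawn independently for each array. The WT comparison itself called 1239 probe sets higher and 3153 lower, so these rates need not hold for it. The number of arrays limits the precision.

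The members, the partner, leaf and root lists and the tests were chosen with earlier results of these data known. Named genes were all members, their brightest probe set giving the value, and the called partner genes. Replicates are seedling pools by their labels, and p-values measure the spread between these pools. Equal replicate numbers were checked for pairing. The correlations of same-numbered deviations ran from -0.166 to 0.100, and the calls were made without pairing. Taken over all probe sets, such a correlation cannot exclude a pairing that shows in some genes only. The mean of the root genes was higher on replicate 2 in both normal groups and on replicate 1 in both drought groups. The alternatives were median centring, quantile normalization, only the arrays of the groups compared, only probe sets with a mean above 5, a spread with a trend and robust estimation, no minimum fold, an adjusted p under 0.01, a replicate block, each array left out, no probe sets of the classes that can match several transcripts, and the median over a gene's probe sets. The average over both lines and the fit without both normal arrays numbered 2 were chosen after seeing the data.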

Additional observations from a re-analysis of the deposited data

How the results depend on the processing

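The counts of called P450 genes were small, so 1 gene moves them. In WT drought leaves (1 higher, 1 lower), the count higher was 0 with probe sets of a mean log2 value above 5 only, which removed CYP71Z7, and the count lower was 0 after quantile normalization. With no minimum fold, 2 genes were higher (CYP71Z7, CYP76M6) and 2 lower (CYP90A4, CYP724B1). At an adjusted p under 0.01 in limma both counts were 0. With probe sets of multiple matching transcripts left out, 2 genes were lower (CYP90A4, CYP714C2). Without both normal arrays numbered 2, both counts were 0. Leaving out 1 array at a time gave 0 to 1 higher and 0 to 3 lower in WT, 0 to 1 higher and 0 lower in OsGRAS23-OE, and 0 in the comparisons between lines and in the difference of the drought changes.

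For the average of both lines (1 higher, 1 lower), the count higher was 0 with the filter on dim probe sets and 3 with no minimum fold, and the count lower was 0 after quantile normalization, 3 with no minimum fold and 0 without both normal arrays numbered 2. Leaving out 1 array gave 0 to 1 in each direction. With the replicate number as a block, WT drought leaves kept 1 higher and 1 lower and every other count was also as in the fit without the block. The compared groups alone were not run for the difference between lines or the average. Over all WT probe sets, 28.2% of the calls were higher, against 41.1% after quantile normalization and 21.2% after median centring.

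Of 785 values of single genes under the alternatives, 709 kept their side of the threshold, 65 fell below it, 11 passed it and 0 changed direction. These values covered P450 genes and called partner genes. Many were not called to begin with, and for them keeping the side meant staying uncalled. The WT calls of CYP71Z7 and CYP90A4 were each lost under several alternatives, as given above. Precision is limited by 2 arrays a group and by dim signals. Only 13 of 23 members (56.5%) exceeded a mean log2 value of 5, against 80.7% of all genes.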
